A study of Mus musculus with 72 samples.

Results

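Tigit encodes an inhibitory receptor of T cells and natural killer (NK) cells, and it is described here as 1 of the 1224 genes measured in mouse tumours after radiation and bintrafusp alfa. It was selected on measured values: its difference between irradiated and control tumours was already known, so its levels and differences across the groups are a description and carry no test. Its variation among tumours of the same group was not used to choose it.

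TIGIT sits on activated T cells, regulatory T cells and NK cells and binds CD155 (Pvr) and CD112 (Nectin2) on tumour cells and antigen-presenting cells. CD226 binds the same ligands and stimulates the cell, and CD96 is a further receptor of CD155, so the receptors compete. Engaged TIGIT dampens killing and cytokine release, and antibodies that block it have been developed for use with blockade of PD-1 or PD-L1.

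The host mice were female BALB/c animals aged 6 to 12 weeks, and the tumour line was 4T1, which derives from a mammary carcinoma of the same strain. Cells went into the thigh muscle on day -6, treatment was given on day 0 and tumours were collected on day 6, while the tissue label reads orthotopic tumour. There were 4 groups of 9 mice. Control mice received an isotype antibody (400 µg), and RT mice received radiation with the isotype antibody. BA mice received bintrafusp alfa (492 µg; M7824 in the labels), an antibody against PD-L1 fused to a part of a TGF-β receptor that traps TGF-β. BA+RT mice received bintrafusp alfa and radiation. How much radiation was given is not stated in the sources used here. The line is a single cell line and no allele or transgene is named for any group. RNA was taken from whole tumours, so more cells with Tigit transcripts and more transcripts per cell cannot be told apart. The p-values below measure the spread between mice.

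Tigit was read by a single amplicon on panel 1, which held 992 genes. The amplicon lay at chr16:43661991-43662081 of GRCm38, on the minus strand, within the coding part of exon 2 of 4 of Tigit (ENSMUSG00000071552, chr16:43648867-43664146). Its 91 bases are shown, read along the transcript, because every Tigit value below counts this stretch and no other part of the transcript.
Tigit amplicon: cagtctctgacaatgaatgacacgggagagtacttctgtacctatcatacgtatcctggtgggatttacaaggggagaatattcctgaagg
The whole stretch occurred in annotated transcripts of 1 gene, Tigit, and 0 other genes shared a run of 25 bases with it. No other annotated gene overlapped it. Its GC content was 45.1%. Transcripts lacking exon 2 would not be read.

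Panel 1 libraries held 1060824 to 1956764 counts in control tumours, 959532 to 1763286 with BA, 1526991 to 2616197 with RT and 1756429 to 2178557 with BA+RT. Irradiated tumours thus had the deeper libraries, and values are given as CPM, counts scaled to a common library size, after TMM scaling, which sets each library relative to the bulk of its panel. TMM left the median log2 fold change of the 1038 genes tested between -0.01 and 0.02 in every comparison. Scaling to the 9 reference genes of each panel moved that median to 0.19 for RT against control, 0.14 for BA+RT against control and 0.20 for BA+RT against BA. Levels of different genes are not compared here, since amplicons differ in how well their primers work.

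Tigit was roughly doubled in both irradiated groups and was not higher with BA alone. In control tumours it was at 149 ± 45.7 CPM (SD, n = 9), with a lowest value of 87.5, a median of 155 and a highest of 217 CPM. With BA it was at 121 ± 30.8 CPM (SD, n = 9), from 67.6 through a median of 122 to 165 CPM. The BA values lay within or below the span of the control values, and the groups overlapped in part. Control mice 3, 5, 6 and 7, at 176 to 217 CPM, lay above the highest BA tumour. With RT it was at 307 ± 66.3 CPM (SD, n = 9), from 191 through a median of 299.9 to 403 CPM. With BA+RT it was at 317 ± 50.6 CPM (SD, n = 9), from 223 through a median of 321 to 391 CPM. The RT and BA+RT values overlapped widely, and no BA+RT tumour was as low as any control or BA tumour. In order of mean level the groups ran BA, control, RT, BA+RT, and the neighbours BA and control, and RT and BA+RT, differed by less than 1 SD of either group.

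**Figure D1:**
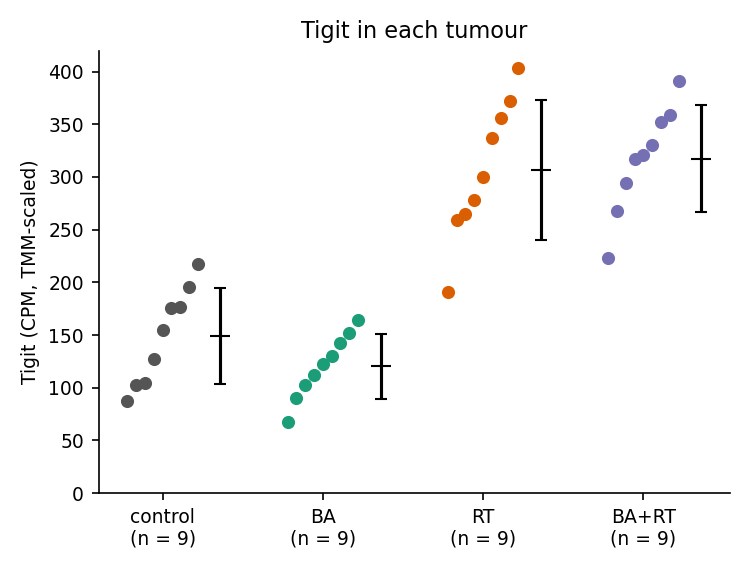
Tigit in CPM (TMM-scaled) for each of the 36 tumours by treatment group, 1 point per tumour sorted by value, with the group mean ± SD beside the points (n = 9). The BA+RT points, from 223 to 391 CPM, all lie above the highest control tumour at 217 CPM, and 1 RT tumour at 191 CPM lies within the control range.

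The raw counts behind these levels were 138 to 365 in control tumours, 87 to 231 with BA, 345 to 961 with RT and 419 to 818 with BA+RT. The lowest count, 87 in BA mouse 14, has an exact Poisson interval of 69.7 to 107 at 95%, which covers counting error only. No library was at 0, so Tigit was detected in every tumour. The edgeR fit put the biological coefficient of variation of Tigit, its spread between mice of a group beyond counting noise, at 23.9%.

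As a log2 fold change from the edgeR fit, Tigit was 1.04 higher with RT than in control tumours (SE 0.16), a fold of 2.06. Of the RT tumours 8 of 9 lay above the highest control tumour, and RT was higher in 79 of the 81 pairs of an RT and a control tumour. BA+RT was 1.09 higher than control (SE 0.16, 2.13-fold) and 1.40 higher than BA (SE 0.17, 2.64-fold), with every BA+RT tumour above every control and BA tumour. From the highest fold change down, Tigit ranked 48 of the 1038 genes tested in RT against control and 25 in BA+RT against BA. These ranks describe the choice of the gene and support nothing.

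BA alone left Tigit 0.31 lower on the log2 scale (SE 0.17), given as a description. A BA tumour was above a control tumour in 26 of 81 pairs. Adding BA to RT gave a difference of 0.05 (SE 0.16), with BA+RT higher in 44 of 81 pairs. The difference between those changes, the interaction of BA and radiation, was 0.36 (SE 0.23).

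The depth of the libraries moved with radiation, and these values stand beside the Tigit difference. In the libraries of both groups with totals between 1526991 and 1956764, 6 RT tumours and 5 control tumours, Tigit was 0.90 higher with RT (SE 0.19). Within groups, the correlation of Tigit in log2 CPM with log2 library total was -0.26 in control, -0.23 in BA, 0.56 in RT and -0.04 in BA+RT tumours (n = 9 each), given as a description. Over 36 tumours centred on their group means it was -0.03. Among 9 BA+RT and 3 RT libraries of overlapping depth the difference between those groups was 0.30 (SE 0.24).

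**Figure D2:**
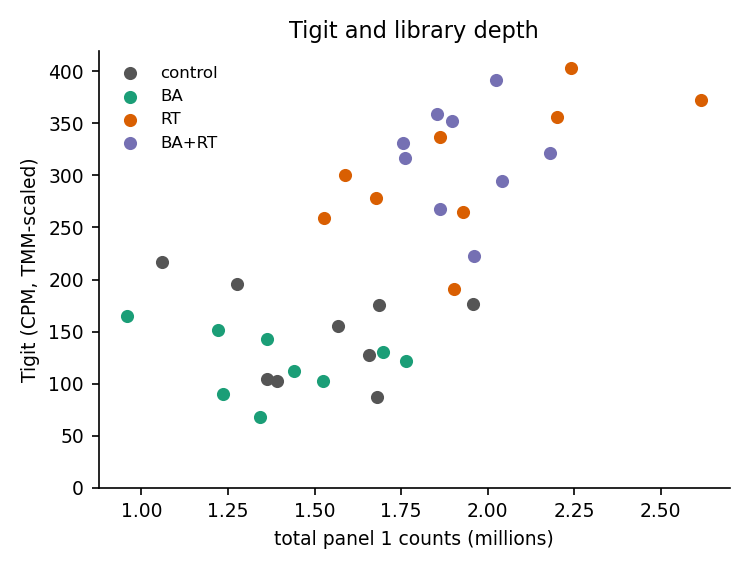
Tigit in CPM (TMM-scaled) against the total counts of the panel 1 library, 1 point per tumour, coloured by group. At totals that control and RT libraries share, 1526991 to 1956764, RT points lie above control points, with 191 CPM the lowest RT value.

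Few genes of the TIGIT pathway were among those measured, and its ligands Pvr and Nectin2 and the competing receptor Cd226 were not analysed here. Of 19 other symbols listed for the pathway, which counted older and newer names of the nectin genes apart, 4 were measured. The 3 tested were Cd96, the kinase gene Lck, which starts T cell receptor signalling, and Ptpn11. The last encodes the phosphatase SHP-2 used by several inhibitory receptors. Crtam, a receptor of activated T and NK cells, had only 1 to 8 counts a library and was not tested. With RT, 1 of the 3 was called, as higher, at an adjusted p below 0.05, where 41.6% of all genes were called. With BA, 2 were called higher and 1 lower, where 27% of all genes were called. Cd96 was at 3.49 ± 3.39 CPM in control, 11.8 ± 7.25 in BA, 2.54 ± 4.03 in RT and 4.02 ± 3.42 CPM in BA+RT tumours (SD, n = 9). It rose with BA by 1.79 on the log2 scale (SE 0.52, edgeR adjusted p = 0.00972) and was lower in BA+RT than in BA by a log2 value of -1.54 (adjusted p = 0.00893). Its difference between RT and control did not pass (-0.47, SE 0.59, adjusted p = 0.556). The fitted changes of Cd96 and Tigit had opposite signs in both single treatments.

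Cd96 was at or near its detection limit in many tumours, with 0 to 37 counts a library. Without RT mouse 24, which carried the most T cell transcripts of its group, the Cd96 difference between RT and control was -1.47 and passed. Lck rose with BA (0.46, SE 0.17, adjusted p = 0.0462), a call lost without any 1 of 12 mice (control 1, 2, 4, 6, 7 and 9, BA 10, 11, 13, 15, 16 and 18), with values of 0.35 to 0.46. The Lck call was also lost under reference gene scaling (0.43), DESeq2 size factors (0.44) and a fit of only control and BA tumours (0.45). Without the filter on low counts it was lost as well (0.45). Ptpn11, which most cell types express, rose with RT (0.15, SE 0.05, adjusted p = 0.0109) and fell with BA (-0.13, SE 0.05, adjusted p = 0.0384). The first call was lost without control mouse 3 or 8 or RT mouse 25 or 27 (0.11 to 0.12) and, at 0.03, among RT and control libraries of overlapping depth. With only RT and control tumours fitted that call was lost too (0.13). The BA call was lost without any 1 of 8 mice (control 4, 5, 7 and 9, BA 12, 13, 15 and 16), where it was -0.13 to -0.10. It was lost as well without TMM scaling (-0.13) and with only control and BA tumours fitted (-0.13). The counts of called pathway genes fell to 0 with RT without control mouse 3 or 8 or RT mouse 25 or 27, and to 1 with BA without control mouse 4, 7 or 9 or BA mouse 13, 15 or 16. With only the groups compared fitted, the counts were 0 with RT and 1 with BA, where 388 and 255 genes in all were called. Without RT mouse 24 the count with RT was 2.

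The other inhibitory receptors went in both directions with RT. Of 17 listed, 13 were measured and 11 tested. With RT, 2 rose, 5 fell and 4 did not pass, where 41.6% of all genes were called, with a median log2 fold change of -0.79 beside -0.01 over all genes. Under reference gene scaling the balance of calls turned, with 3 higher and 2 lower, while the median stayed negative (-0.58). The 2 that rose were Havcr2, which encodes TIM-3, and Cd200r1, a brake on myeloid cells. Havcr2 went from 183 ± 26.8 to 275 ± 52.7 CPM (a log2 difference of 0.58, SE 0.11, adjusted p = 8.31e-05). Cd200r1 went from 230 ± 34.5 to 332 ± 42.5 CPM (0.53, SE 0.08, adjusted p = 1.51e-06). Both are also expressed by macrophages and other myeloid cells.

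The 5 receptors that fell with RT were Ctla4, Lag3, Btla, Entpd1 and Cd5. Ctla4, which outcompetes CD28 for its ligands, fell from 8.49 ± 4.67 to 3.07 ± 2.4 CPM (-1.44, SE 0.47, adjusted p = 0.0133). Lag3, a receptor for MHC class II, fell from 14.7 ± 2.69 to 8.22 ± 3.47 CPM (-0.84, SE 0.22, adjusted p = 0.00247). Entpd1, the ectonucleotidase CD39, fell by 0.42 (SE 0.09, adjusted p = 0.000187). Under reference gene scaling Entpd1, Btla and Cd5 kept their sign but not their call (-0.21, -0.58 and -0.69). Btla, a receptor for HVEM (-0.79, SE 0.31, adjusted p = 0.0363), lost its call without any 1 of 8 mice (control 1 and 3, RT 20, 21, 23, 25, 26 and 27), at -0.78 to -0.65. Cd5, a damper of T cell receptor signals (-0.89, SE 0.36, adjusted p = 0.0462), lost it without any 1 of 10 (control 1, 3, 6 and 8, RT 20, 22, 23, 25, 26 and 27), at -0.91 to -0.59. Pdcd1, which encodes PD-1, stood at 5.12 ± 3.03 CPM in control and 2.81 ± 1.89 CPM with RT and did not pass (-0.86, adjusted p = 0.058). It passed without any 1 of 6 mice (control 3, 7 and 9, RT 21, 23 and 25), at -1.05 to -0.94. Klrc1, the NKG2A chain of an NK receptor (-0.89), Lair1, a collagen receptor (0.19), and 4632428N05Rik, which encodes VISTA (-0.21), did not pass either. Lair1 passed under reference gene scaling (0.42), and 4632428N05Rik passed without control mouse 6 (-0.30). Among the 6 RT and 5 control libraries of overlapping depth 396 genes in all were called, beside 432 with every library. Of the 11 receptors 3 were called there. The calls of Ctla4 (-1.26), Lag3 (-0.67), Havcr2 (0.32), Btla (-0.22) and Cd5 (-0.22) were lost, and 4632428N05Rik was called as lower (-0.41).

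With BA several receptors rose, while Tigit was 0.31 lower. The median log2 fold change of the 11 tested was 0.24 beside 0.002 over all genes. Of them 5 rose, 0 fell and 6 did not pass, where 27% of all genes were called. At an unadjusted p below 0.05 it was 6 higher and 0 lower, and DESeq2 called 5. Ctla4 rose to 29.5 ± 13.1 CPM (a log2 difference of 1.80, SE 0.41, adjusted p = 0.00119), Klrc1 to 8.16 ± 4.31 (1.41, adjusted p = 0.0263), Cd5 to 10.3 ± 3.84 (1.10, adjusted p = 0.0107) and Pdcd1 to 9.87 ± 3.35 CPM (0.95, adjusted p = 0.0323). Cd200r1 rose by 0.27 (adjusted p = 0.00958). The Pdcd1 call was lost without any 1 of 8 mice (control 3, 5, 7 and 9, BA 10, 15, 16 and 18), at 0.84 to 0.94. The count of 5 became 3 without control mouse 7, control mouse 9 or BA mouse 15. With only control and BA tumours fitted it was 2, where 255 genes were called beside 280 in the main fit.

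The receptors were called at about the rate of all genes where both treatments were compared with control or BA. In BA+RT against control, where 47.6% of all genes were called, 2 of 11 receptors rose and 4 fell (median -0.41). The 2 that rose were Havcr2 and Cd200r1, which lost their calls without any 1 of 9 mice (control 1, 2, 4, 6 and 7, BA+RT 37, 40, 43 and 44, at 0.22 to 0.29) and 8 mice (control 1, 6, 8 and 9, BA+RT 38, 41, 42 and 45, at 0.16 to 0.20). In BA+RT against BA, where 53.5% were called, 0 rose and 6 fell (median -0.75), with 0 higher and 7 lower at an unadjusted p below 0.05 and 6 called by DESeq2. Ctla4 was lower by a log2 value of -3.10 (SE 0.44, adjusted p = 6.94e-07) and Pdcd1 by -1.37 (SE 0.34, adjusted p = 0.00096) in that comparison. In BA+RT against RT, where 10.8% of all genes were called, 1 of 11 was lower, Cd200r1 (-0.32, SE 0.08, adjusted p = 0.00572). That count became 2 without RT mouse 22 and 4 without BA+RT mouse 40. Among libraries of overlapping depth, 9 BA+RT and 3 RT, edgeR called 0 of 11, where it called 38 genes in all, beside 112 with every library. At an unadjusted p below 0.05 it was 0 higher and 1 lower, and Cd200r1 was at -0.23.

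**Figure D3:**
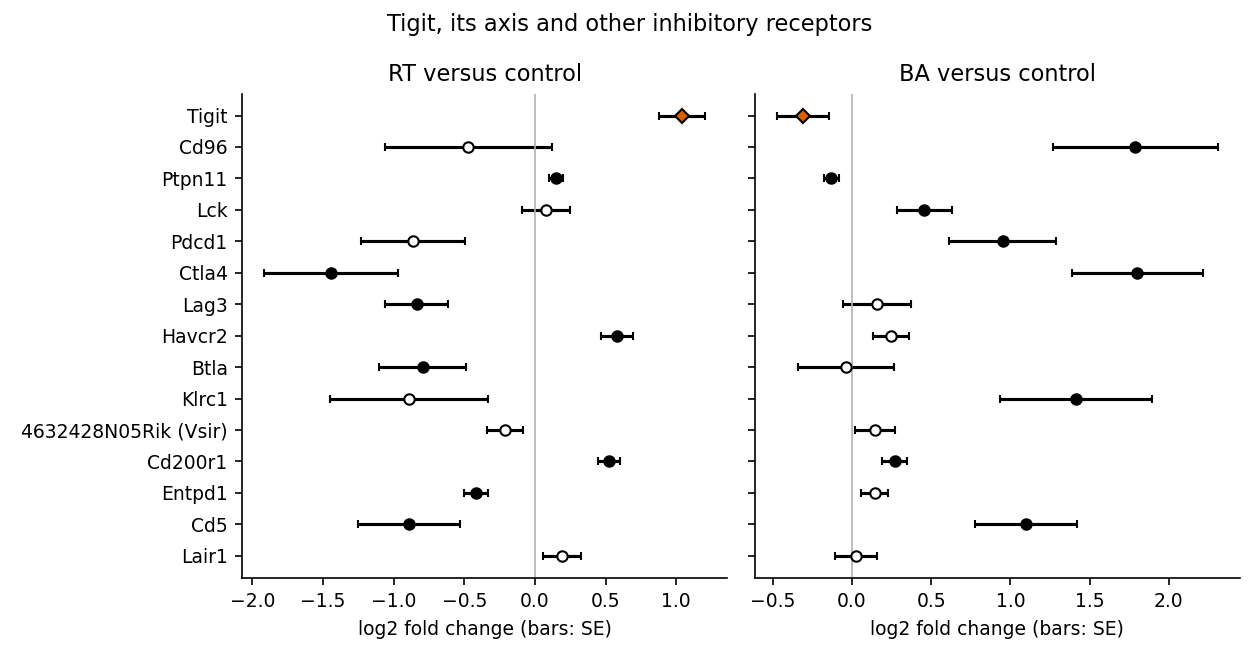
Log2 fold change with its SE for Tigit (orange diamond, no test), 3 genes of its pathway and 11 other inhibitory receptors, in RT against control (left) and BA against control (right), with 9 mice in each group. Filled circles passed an edgeR adjusted p of 0.05 and open circles did not, and Tigit lies at 1.04 on the left and -0.31 on the right while Ctla4 lies at -1.44 and 1.80.

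The T cell markers were lower or did not pass in the groups with the most Tigit. Of 25 listed T cell markers 20 were measured and 16 tested. With RT, 0 rose, 3 fell (Cd2, Icos and Zap70, named after their values were seen) and 13 did not pass, where 41.6% of all genes were called, with a median log2 fold change of -0.73. At an unadjusted p below 0.05 it was 0 higher and 5 lower, and DESeq2 called 5. With BA, where 27% of all genes were called, 6 rose and 0 fell, with a median of 1.03, 13 higher and 0 lower at an unadjusted p below 0.05, and 7 called by DESeq2. In BA+RT against control, where 47.6% of all genes were called, 0 rose and 3 fell (median -0.48). In BA+RT against BA, where 53.5% were called, 13 of 16 were lower (median -1.57). In BA+RT against RT, where 10.8% were called, edgeR and DESeq2 called 0 of 16 (median 0.13). At an unadjusted p below 0.05 it was 0 as well. Cd3g, a chain of the T cell receptor complex, was at 16.4 ± 12.8 CPM in control, 49.1 ± 26.9 in BA, 9.11 ± 10.8 in RT and 13.9 ± 9.42 CPM in BA+RT tumours (SD, n = 9). Over the same groups Tigit was at 149, 121, 307 and 317 CPM.

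These counts rested in part on single mice. Without RT mouse 24 the markers lower with RT numbered 11, and without control mouse 5 or control mouse 9 they numbered 5. Without control mouse 3 the markers higher with BA numbered 11, and without control mouse 8 they numbered 10. The markers called in BA+RT against control numbered 1 without control mouse 3 and 6 without BA+RT mouse 40. Among RT and control libraries of overlapping depth, which included RT mouse 24, edgeR called 0 of the 18 markers tested there (median -0.23). At an unadjusted p below 0.05 it was 0 higher and 1 lower. There 396 genes in all were called, beside 432 with every library. For BA+RT against RT, the 9 and 3 libraries of overlapping depth gave a median of 1.19 over 19 markers tested. Of these edgeR called 0, where it called 38 genes in all, beside 112 with every library. At an unadjusted p below 0.05 it was 5 higher and 0 lower. Counts of single markers were low, with Cd8a at 0 to 27, Cd8b1 at 0 to 41 and Cd3e at 3 to 56 counts a library. Cd8a and Cd8b1, which mark cytotoxic T cells, were each at 0 in 2 of 36 libraries.

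A T cell score, the mean log2 CPM of the 16 tested markers, put the marker level and Tigit side by side in each tumour. The score was 3.21 ± 0.64 in control, 4.16 ± 0.63 in BA, 2.6 ± 0.68 in RT and 2.85 ± 0.45 in BA+RT tumours (SD, n = 9). Summed, the 16 markers had a median of 134.7 CPM in control (range 102 to 347), 311 with BA (205 to 651), 91.3 with RT (65.6 to 327) and 108 with BA+RT (90.1 to 276). Tigit in log2 CPM minus this score was 3.96 ± 0.72 in control, 2.72 ± 0.60 in BA, 5.63 ± 0.70 in RT and 5.45 ± 0.54 in BA+RT tumours. It ran from 1.75 to 3.51 with BA and from 3.95 to 6.42 with RT, without overlap, and the control values of 2.92 to 4.86 overlapped both. Only differences of this quantity between groups can be read, not its size, and it contains the Tigit values the gene was chosen on. The part of cell make-up in the Tigit levels was not tested.

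Of the 15 tested cytotoxic and NK genes 3 were called with RT, where 41.6% of all genes were called, and 9 with BA, where 27% were. The list had 23 genes, of which 19 were measured. With RT, 3 rose and 0 fell (median log2 fold change -0.10, and 0.12 under reference gene scaling), with 3 higher and 3 lower at an unadjusted p below 0.05 and 6 called by DESeq2. The 3 were the granzyme gene Gzmm (1.56, SE 0.22, adjusted p = 7.44e-07), the early activation marker Cd69 (0.92, SE 0.18, adjusted p = 0.000104) and the death ligand gene Fasl (0.87, SE 0.32, adjusted p = 0.0298), named after their values were seen. Gzmm was at 6.42 ± 2.14 CPM in control, 7.17 ± 2.96 in BA, 19 ± 3.87 in RT and 17.8 ± 5.16 CPM in BA+RT tumours (SD, n = 9). With BA, 8 rose and 1 fell (median 1.19). Prf1, which encodes the pore-forming perforin, went from 5.64 ± 4.61 to 90.4 ± 44.2 CPM with BA (3.98, SE 0.51, adjusted p = 7.03e-07) and stood at 4.83 ± 3.30 CPM with RT. Eomes, a transcription factor of memory T and NK cells, was the member that fell with BA (-0.38, SE 0.11, adjusted p = 0.00909). Without control mouse 7 the count with RT was 5. In BA+RT against control, where 47.6% of all genes were called, 5 rose and 1 fell (median 0.47). Prf1 was then at 25.2 ± 31.3 CPM (range 8.29 to 108), 2.15 above control (SE 0.50, adjusted p = 0.000625). In BA+RT against RT, where 10.8% were called, 4 rose and 1 fell. The number called became 2 without BA+RT mouse 40. Among libraries of overlapping depth it was 1, where 38 genes in all were called.

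Regulatory T cells are a main site of TIGIT, and of 8 tested genes, from 13 listed and 11 measured, 6 were called with BA and 2 with RT, where 27% and 41.6% of all genes were called. With BA, 4 rose and 2 fell, and with RT 1 rose and 1 fell. Foxp3, their defining transcription factor, rose with BA by 1.60 (SE 0.24, adjusted p = 8.17e-06) and was at -0.64 with RT, which did not pass (SE 0.26, adjusted p = 0.0511). Tnfrsf18, which encodes the costimulatory receptor GITR, fell with RT by 0.75 (SE 0.19, adjusted p = 0.00178) and rose with BA by 1.12 (SE 0.19, adjusted p = 3.21e-05). Il2ra, the high-affinity IL-2 receptor chain, rose with BA by 1.53 (SE 0.25, adjusted p = 3.21e-05), as did the costimulatory receptor gene Tnfrsf4 by 0.77 (SE 0.13, adjusted p = 4.73e-05). Lrrc32, which encodes the TGF-β docking protein GARP, rose with RT by 0.39 (SE 0.15, adjusted p = 0.0335) and fell with BA by 0.56 (SE 0.15, adjusted p = 0.00575). Nrp1, a co-receptor also found on vessels and myeloid cells, did not pass in either (-0.07 and 0.17). The count with RT became 1 without control mouse 1 or 8 or RT mouse 19, 21, 23 or 26. Il10 was the other member that fell with BA (-1.17, SE 0.30, adjusted p = 0.00398). In BA+RT against control, where 47.6% of all genes were called, 1 rose and 2 fell. Il2ra rose by 1.16 (SE 0.25, adjusted p = 0.000279), while Tnfrsf18 (-0.78) and Il10 (-1.14) fell. Under reference gene scaling 3 rose and 2 fell there.

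Whether tumours with more T cell or cytotoxic transcripts had more Tigit was asked within groups, which the choice of the gene did not use. Tigit in log2 CPM and the T cell score had a Pearson r of 0.17 in control tumours (exact permutation p = 0.661), 0.37 with BA (p = 0.323), 0.18 with RT (p = 0.644) and -0.14 with BA+RT (p = 0.678), all two-sided with n = 9. Spearman's rho was 0.42, 0.47, 0.27 and -0.17, with exact permutation p of 0.27, 0.213, 0.493 and 0.678. Over 36 tumours centred on group means r was 0.19 (permutation p = 0.31) and rho 0.25 (permutation p = 0.17). No value passed after adjustment over the 10 relations computed, the adjusted permutation p for r running from 0.577 to 0.754. With 9 tumours a group, these values do not show that the relation is absent.

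Without the 2 tumours farthest from the median T cell score, r was -0.04 in control tumours (mice 3 and 8 left out) and -0.08 in RT tumours (mice 22 and 24 left out). With RT mouse 24 alone left out it was 0.46, and over each RT mouse left out in turn it ran from -0.16 to 0.46. In BA tumours r was 0.35 without mice 11 and 15, and in BA+RT tumours 0.31 without mice 40 and 42. RT mouse 24 had the highest T cell score of its group, 4.28 against 2.74 for the next, and its Tigit level was the group's median of 299.9 CPM. BA+RT mouse 40 had a score of 3.99 against 2.85 for the next, and its Tigit level of 294.6 CPM was the third lowest of 9.

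The cytotoxic score, the mean log2 CPM of 15 genes, was 4.15 ± 0.60 in control, 5.51 ± 0.32 in BA, 4.30 ± 0.23 in RT and 4.85 ± 0.53 in BA+RT tumours (SD, n = 9). Its relation to Tigit was r = 0.35 in control (exact permutation p = 0.346), 0.55 with BA (p = 0.124), 0.67 with RT (p = 0.0507) and -0.07 with BA+RT (p = 0.82). The exact permutation p of Spearman's rho in RT tumours (rho = 0.77) was 0.0214, and 0.107 after adjustment. Over 36 tumours centred on group means r was 0.32 (permutation p = 0.078, adjusted 0.39) and rho 0.45 (permutation p = 0.0106, adjusted 0.106). None passed after adjustment. Without the 2 tumours farthest from the median score, r was 0.62 in control, 0.33 in BA, 0.61 in RT and 0.57 in BA+RT tumours, and over the centred tumours it was 0.57 without control mouse 8 and BA+RT mouse 40 (unadjusted permutation p = 0.00334). Under reference gene scaling r in RT tumours was 0.82 and over the centred tumours 0.46, and both passed after adjustment. With the median of the 15 genes as the score, r was 0.36 in RT tumours (exact permutation p = 0.342). Over the centred tumours it was then 0.24 (permutation p = 0.226), and neither passed.

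**Figure D4:**
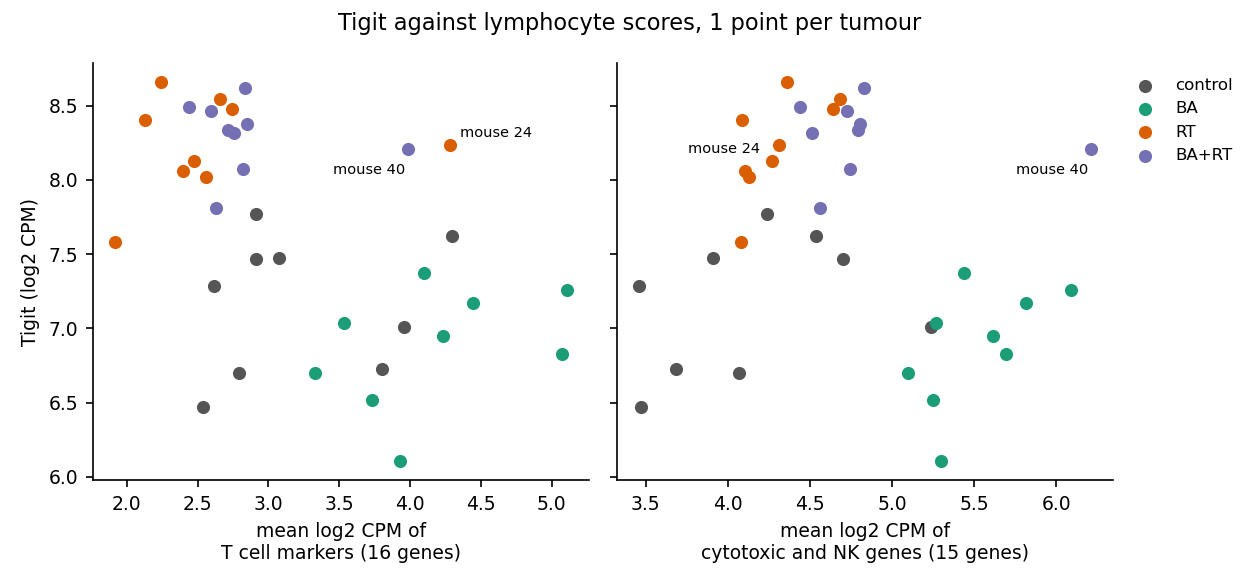
Tigit in log2 CPM against the T cell score (left, 16 genes) and the cytotoxic score (right, 15 genes) in mean log2 CPM, 1 point per tumour, coloured by group. The RT and BA+RT points lie high on Tigit at T cell scores mostly below 3, apart from mouse 24 at 4.28 and mouse 40 at 3.99, and the BA points lie low on Tigit at scores of 3.33 to 5.11.

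Member by member, values are given as a description. After centring on group means, 15 of 16 T cell markers and 15 of 15 cytotoxic genes had an r with Tigit above 0 over the 36 tumours, with medians of 0.13 and 0.22 beside 0.01 over the 815 other genes tested on the panel. Genes of a list share cells and libraries, so these are not independent. The highest T cell markers were Cd7 (0.53), Cd3e (0.30) and Themis (0.21), and the lowest was Trat1 (-0.31). Of the cytotoxic genes the highest were Eomes (0.45), the NK receptor genes Ncr1 (0.42) and Klrk1 (0.40), and the lowest was Prf1 (0.01). Of the regulatory T cell genes the highest were Tnfrsf4 (0.43), Il2ra (0.21) and Lrrc32 (0.10) and the lowest Nrp1 (-0.62). Among the inhibitory receptors Klrc1 had the highest r (0.46) and 4632428N05Rik the lowest (-0.48).

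The genes most like Tigit belonged to none of the gene lists. By the same centred r the 5 highest of 815 were Qrsl1 (0.75), a mitochondrial amidotransferase subunit, the proteasome subunit genes Psmb5 (0.68) and Psmc3 (0.63), the phosphatase gene Inpp4b (0.68) and Apol7a (0.62). The lowest were Rnf19a (-0.82), Gadd45a (-0.81) and Lnpep (-0.80). Qrsl1 was at 71.5 ± 20.6 CPM in control, 58.1 ± 10.1 in BA, 87.4 ± 22.2 in RT and 72.8 ± 13.5 CPM in BA+RT tumours (SD, n = 9). Without centring, so that the group pattern itself enters, the highest were the proteasome gene Psmc5 (0.91), the chemokine gene Ccl2 (0.88), the interferon-induced cholesterol hydroxylase gene Ch25h (0.88), the mesothelin gene Msln (0.88) and the interferon-induced gene Oasl1 (0.86). Oasl1 was at 185 ± 33.3 CPM in control, 185 ± 28.5 in BA, 1257 ± 121 in RT and 1183 ± 197 CPM in BA+RT tumours (SD, n = 9). All points share library, depth and panel, and the likeness is given with no p.

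**Figure D5:**
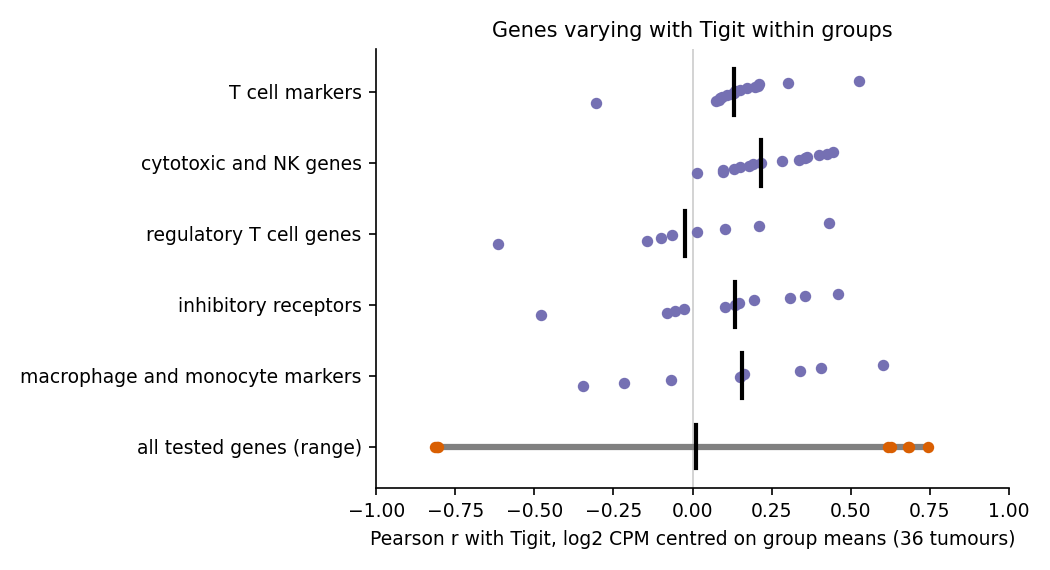
Pearson r with Tigit over 36 tumours, log2 CPM centred on group means, for the members of 5 gene lists (points; vertical bars are list medians) and for all 815 genes compared (grey line from lowest to highest, orange points the 5 highest and 3 lowest). List members lie between -0.62 and 0.60, and the genes at the ends of the range, at -0.82 and 0.75, belong to none of the 5 lists.

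Macrophage and monocyte markers went in both directions with radiation. Of 8 tested, 4 rose and 2 fell with RT, where 41.6% of all genes were called. Those that rose were Fcgr1 (0.32), the scavenger receptor gene Msr1 (0.48), Cd68, a lysosomal protein gene of macrophages (0.70, SE 0.06, adjusted p = 1.56e-10), and the macrophage surface receptor gene Adgre1 (0.69, SE 0.12, adjusted p = 2.34e-05). Those that fell were Csf1r, the receptor for the macrophage growth factor CSF1 (-0.55, SE 0.09, adjusted p = 4.11e-06), and the chemokine receptor gene Ccr2 (-0.66, SE 0.15, adjusted p = 0.000457). The centred r with Tigit was above 0 for 5 of the 8 and ran from -0.35 for Msr1, -0.22 for Cd14 and -0.07 for Csf1r through 0.15 for Ccr2, 0.16 for Fcgr1, 0.34 for Adgre1 and 0.41 for Cd68 to 0.60 for Cd163 (median 0.16). Summed, the 8 markers had medians of 4710 CPM in control (4176 to 5050), 5195 with BA (4624 to 5625), 4985 with RT (3864 to 5582) and 4486 with BA+RT (3947 to 5099). Their part in the Tigit levels was not tested. The interaction of BA and radiation was called for 8.29% of all genes. It was called for 2 of the 11 inhibitory receptors (Havcr2 and Cd200r1, both negative) and 1 of the 3 pathway genes (Ptpn11, positive). It was also called for 1 of the 16 T cell markers (Ccr7, negative) and 3 of the 8 regulatory T cell genes. The last were Foxp3 (-1.38), Tnfrsf18 (-1.15) and Tnfrsf4 (-0.77). Of the 15 cytotoxic genes, Eomes was called as positive and Fcgr3 as negative. Under reference gene scaling 0 of the 15 were called, where 61 genes in all were, beside 86 in the main fit. Without TMM scaling 0 were called as positive and 1 as negative. With each mouse left out in turn, 3 regulatory T cell genes and 1 to 6 cytotoxic genes were called. Without BA+RT mouse 40 the receptors called were 4 and the T cell markers 2, and without any 1 of 11 other mice (control 4 and 7, BA 16 and 18, RT 25 and 27, BA+RT 41, 42, 43, 44 and 45) the receptors called were 1.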

How the data were processed

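RNA of 36 tumours was read with 2 targeted amplicon panels, giving 72 libraries. The authors deposited raw whole-number counts for each amplicon, per the file headers. The aligner, and whether reads or molecular barcodes were counted, are not stated in the sources available here. A further deposited table holds regularized log2 values from DESeq2 (named, with no version, in the submitters' processing notes); it served as an alternative. Position columns are headed GRCh38, but on GRCm38 1277 of 1278 amplicons fell within the mouse gene they are named for, so GRCm38 positions are given. The 10 genomic DNA rows (2.32e-05% of counts) were left out.

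Tigit, the gene lists and the tests were chosen with earlier results of these data known. Counts were fitted per panel with edgeR 4.0.16 in R 4.3.3 (4 groups, TMM, default expression filter, two-sided quasi-likelihood F test with robust priors), which tested 1038 of 1224 genes. A gene on both panels was taken from the panel with its larger total. Calls need a Benjamini-Hochberg adjusted p below 0.05 across the 1038 genes. SE is |log2 fold change| over the root of F. Scores average log2 CPM (prior count 2) on panel 1. Their relations to Tigit used two-sided exact permutation over 362880 pairings, or 100000 permutations within groups for 36 tumours. Named genes were Tigit, every tested pathway gene and inhibitory receptor, the 3 members with the highest and 1 with the lowest centred r of the T cell, cytotoxic and regulatory T cell lists, and the 5 genes most like Tigit by each measure. Others were named after their values were seen. The code was tested on simulated counts. Alternatives were DESeq2 1.42.0, limma 3.58.1 on the deposited values, other scalings and filters, each mouse left out and, chosen after seeing the data, libraries of overlapping depth and the removal of RT mouse 24 with BA+RT mouse 40.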

Additional observations from a re-analysis of the deposited data

Results flagged for a closer look

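In each group of 9 tumours the scores and the Tigit values were checked for a tumour far from the others, over 16 sets of values, of which chance flags about 1 in 20. RT mouse 24 stood apart in the T cell score, at 4.28 with the next at 2.74, and in Tigit minus that score, at 3.95 with the next at 5.46. BA+RT mouse 40 stood apart in the T cell score, at 3.99 with the next at 2.85, in the cytotoxic score, at 6.21 with the next at 4.83, and in Tigit minus the T cell score, at 4.22 with the next at 5.18. Neither tumour stood apart in Tigit itself.

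The interaction term of edgeR asks whether the response to BA differed with and without radiation. Among the 3 pathway genes and 11 inhibitory receptors tested, it was called for 3, where 8.29% of all genes were called. It was 0.27 for Ptpn11 (SE 0.07, adjusted p = 0.00831), -0.54 for Havcr2 (SE 0.16, adjusted p = 0.0294) and -0.59 for Cd200r1 (SE 0.11, adjusted p = 0.000984). The Havcr2 term kept its sign but lost its call under reference gene scaling (-0.57) and without any 1 of 11 mice (control 4 and 7, BA 16 and 18, RT 25 and 27, BA+RT 41, 42, 43, 44 and 45), at -0.52 to -0.47.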

How the results depend on the processing

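Tigit was higher in both irradiated groups under each alternative run. With each mouse left out in turn its log2 difference was 0.95 to 1.12 for RT against control, 1.0 to 1.17 for BA+RT against control, 1.32 to 1.46 for BA+RT against BA, -0.38 to -0.23 for BA against control and 0.28 to 0.43 for the interaction. For BA+RT against RT it was -0.02 to 0.11, and -0.005 under reference gene scaling. On the deposited regularized log2 values the first 3 were 0.65, 0.70 and 0.88. Under reference gene scaling they were 1.25, 1.24 and 1.60.

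Factors from the reference genes changed the split of calls from 213 higher and 219 lower to 422 and 79 (RT against control), from 130 and 150 to 99 and 183 (BA against control), from 243 and 251 to 387 and 157 (BA+RT against control), from 38 and 74 to 19 and 96 (BA+RT against RT) and from 281 and 274 to 472 and 147 (BA+RT against BA). In BA+RT against RT the 112 genes called became 38 among libraries of overlapping depth, where 3 RT libraries remained. Tigit against the cytotoxic score passed under reference gene scaling in RT tumours (r = 0.819) and over 36 centred tumours (r = 0.455). With the median of the genes as the score neither passed (r = 0.363 and 0.238). No paired analysis was possible because no mouse number is shared between groups. Lymphocyte markers with a few counts a library limit the precision of the scores, while Tigit had at least 87 counts.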
